A study of Mus musculus with 7 samples.

Results

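The effect of dietary glucosylceramide (GC) on mouse skin after detergent was read from 4 Agilent whole mouse genome arrays with 2 colours, each of which held 1 GC-fed and 1 control-fed sample of dorsal skin RNA. The mice were male, 5 weeks old and of HR-1, a hairless strain. They ate AIN-93G, a purified rodent diet, with GC added (GC-fed) or without it (control-fed) for 14 days, and sodium dodecyl sulfate (SDS) at 10% was put on the back skin for 5 minutes, 2 times in all, starting 2 days before the skin was taken. Skin of both diets had therefore been treated with SDS. In the skin used for comparison, taken before SDS, 3 further arrays paired GC-fed with control-fed samples after 12 days of diet. The labels call the samples biological replicates and do not say whether RNA was pooled, so p-values measure the spread between these samples. A gene was included where its probe was clearly brighter than the local background in 3 or more of the 8 after-SDS channels, which held for 16507 of the 17111 genes tested in the series; 13625 of them were above background in all 8 channels. The keratins of the basal epidermis, Krt5 and Krt14, had log2 intensities of 16.53 to 17.40 and of 16.17 to 17.13 over the 8 samples, against a median of 9.59 to 9.65 over all included genes. Keratinocyte transcripts were thus far above the median signal in every sample.

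The outer layer of skin is a wall of dead keratinocytes whose protein shell, the cornified envelope, is embedded in ceramides, cholesterol and fatty acids. Its ceramides are made in the epidermis, stored as glucosylceramides in lamellar granules and freed from them outside the cell. SDS strips lipid from this wall and irritates the living layers, after which keratinocytes release interleukin 1 and chemokines, neutrophils and monocytes enter the dermis, and lipid synthesis and differentiation are raised for repair. GC eaten in food is largely broken down to sphingoid bases in the gut.

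Diet effects are given as log2 ratios, GC-fed over control-fed on the same array, so that a value of 1 means that the GC-fed sample was brighter by a factor of 2. The GC-fed sample carried Cy3 on arrays 1 and 2 and Cy5 on arrays 3 and 4. Arrays 1, 2 and 3 ran alike: across genes, which are not independent replicates, their ratios correlated at r = 0.5, 0.32 and 0.43. Array 4 ran opposite to each of them, with r = -0.5 against array 1, -0.62 against array 2 and -0.31 against array 3. Array 3 and array 4 carried the same dyes. The spread of the ratios was similar, with an SD over genes of 0.287, 0.334, 0.411 and 0.31 on arrays 1 to 4. The direction in the labels was kept for every value, and results are given with and without array 4. Whether the labelled direction of array 4 is right was not tested.

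**Figure D1:**
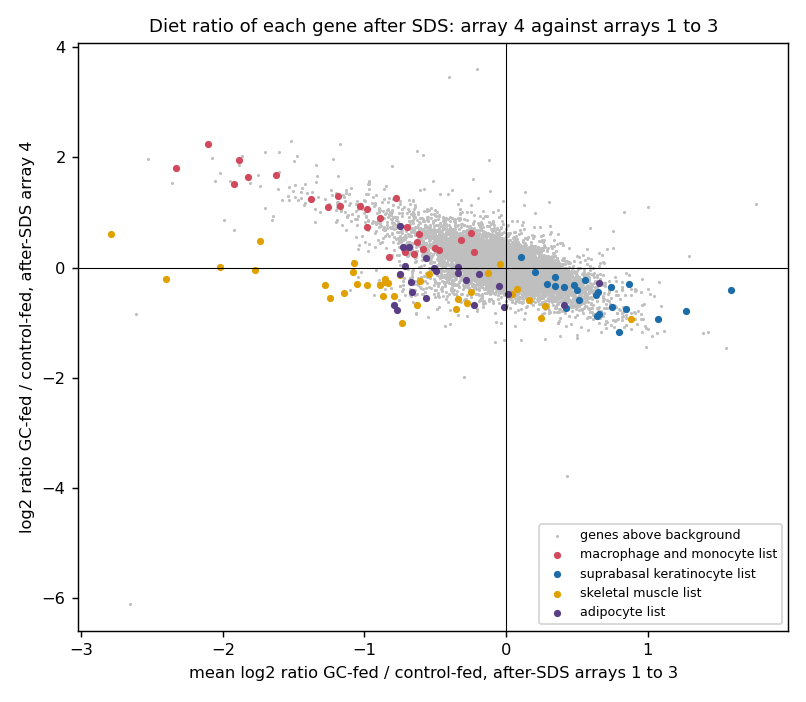
Each point is a gene above background; the x axis is its mean log2 diet ratio (GC-fed over control-fed) on after-SDS arrays 1 to 3 and the y axis its log2 ratio on array 4, with 4 gene lists in colour. Macrophage and suprabasal keratinocyte genes lie on the falling diagonal, whereas many skeletal muscle and adipocyte genes lie below 0 on both axes.

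Across all 4 arrays, no gene passed the test of the diet effect. In limma's fit, with Benjamini-Hochberg adjustment over all genes and a threshold of 0.05, 0 of 16507 genes were called higher (0%) and 0 lower (0%), and the lowest adjusted p was 0.835. Before adjustment, 262 genes were higher and 476 lower at p under 0.05. Ratios had the same sign on 4 of 4 arrays for 513 higher genes (3.11%) and 767 lower genes (4.65%). On arrays 1 to 3 the sign was shared by 2670 higher genes (16.2%) and 3643 lower genes (22.1%), and for 5044 of these 6313 genes array 4 had the other sign. Without array 4, limma called 250 genes higher (1.51%) and 676 lower (4.1%). Of these, 18 higher genes had a ratio above 0 on array 4, and 44 lower genes had a ratio below 0 there. The calls made without array 4 rest on 3 arrays. Array 4 was left out because its ratios were seen to run opposite. The adjusted p-values of these calls, here and below, are therefore not valid error rates and serve as a description. Under the 18 other settings tried, 0 genes passed (lowest adjusted p 0.1).

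The split between arrays was visible in the levels of the single samples. For 27 macrophage and monocyte markers, the mean log2 intensity was 11.44, 11.43, 11.30 and 12.55 in the GC-fed samples of arrays 1 to 4, against 12.43, 12.40, 12.44 and 11.60 in the control-fed samples. The GC-fed sample of array 4 was thus the highest of all 8, and the control-fed sample of array 4 lay nearer the other GC-fed samples than the other control-fed ones. In such bulk tissue, fewer cells of a type and less RNA per cell cannot be told apart. For 23 genes of suprabasal differentiation, the levels were 13.20, 12.95, 13.12 and 12.47 in GC-fed skin, against 12.33, 12.54, 12.50 and 12.97 in control-fed skin, a split of the same kind in the other direction. Markers of skeletal muscle did not split in this way: the 35 genes averaged 12.30, 12.99, 12.36 and 12.90 in GC-fed skin, against 13.27, 13.18, 13.49 and 13.24 in control-fed skin, so the groups did not overlap. The 23 adipocyte genes averaged 12.67, 12.66, 12.45 and 12.62 in GC-fed skin, against 12.87, 12.89, 13.19 and 12.83 in control-fed skin, again with no overlap. The cause of the split was not tested.

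**Figure D2:**
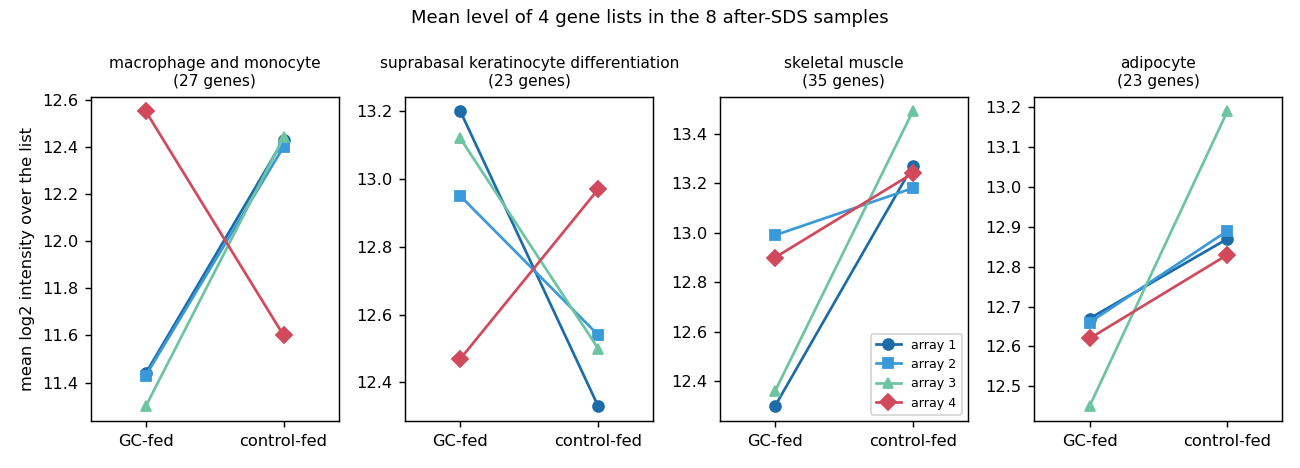
Mean log2 intensity of 4 gene lists in the 8 after-SDS samples, GC-fed on the left and control-fed on the right, with a line joining the 2 samples of an array. The line of array 4 crosses the others for macrophage and suprabasal genes and runs with them for muscle and adipocyte genes.

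Few genes were higher in GC-fed skin on every array by more than a small amount. Ratios beyond 0.25 on all 4 arrays were found for 4 higher genes (0.0242%) and 41 lower genes (0.248%). Mug1, a murinoglobulin that traps proteases, was the 1 gene beyond 1 on every array, with ratios of 2.02, 1.53, 1.74 and 1.16 on arrays 1 to 4. Its log2 intensity was 11.13, 9.69, 10.41 and 9.85 in GC-fed skin, against 9.1, 8.16, 8.67 and 8.70 in control-fed skin, and the groups did not overlap. Genes given here and below as without overlap were picked by their ratios or p-values on these same arrays. The lack of overlap is therefore a description and not further support. The share of all genes without overlap was not counted. The fit put it at 1.61 (SE 0.25, unadjusted p = 0.000451), which did not pass. Serpina3b, a serine protease inhibitor of the clade A cluster on chromosome 12, had ratios of 1.19, 0.86, 0.96 and 1.10 and a fitted value of 1.03 (SE 0.17). Its log2 intensity was 11.90, 11.04, 11.90 and 11.49 in GC-fed skin, against 10.70, 10.17, 10.94 and 10.39 in control-fed skin, so every GC-fed sample was above every control-fed one. The Serpina3 genes are near copies of each other, so a probe may read more than 1 of them. Wwc1, the scaffold protein KIBRA of the Hippo pathway, had ratios of 0.39, 0.72, 1.39 and 1.01 and a fitted value of 0.88 (SE 0.12). Its levels were 10.24, 10.00, 10.69 and 10.37 in GC-fed skin, against 9.85, 9.28, 9.30 and 9.36 in control-fed skin, with no overlap. All 3 genes passed in the fit without array 4, at 1.74 (adjusted p = 0.0263), 1.07 (adjusted p = 0.0361) and 0.90 (adjusted p = 0.0253).

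Other genes higher on 4 of 4 arrays had smaller ratios. Col1a2, the second chain of type I collagen, was at 0.16, 0.39, 1.71 and 0.66, with levels of 16.97, 17.20, 17.41 and 17.10 in GC-fed skin, against 16.81, 16.81, 15.70 and 16.44 in control-fed skin. The groups did not overlap, although array 3 had a far larger ratio than the others, and the fitted value was 0.73 (SE 0.17). Another probe of Col1a2 gave 0.21. Cntn1, a neuronal adhesion molecule, was at 0.17, 0.77, 0.77 and 0.34, and Pla2r1, the receptor of secreted phospholipase A2, at 0.19, 0.36, 0.47 and 0.39. Acox3, a peroxisomal oxidase of branched fatty acids, was at 0.24, 0.30, 0.32 and 0.30, the narrowest spread of these genes. Anxa8, an annexin of stratified epithelia, was at 0.65, 0.38, 0.51 and 0.20, Cpe, carboxypeptidase E, at 0.22, 0.39, 0.48 and 0.16, and Ezr, which ties membranes to actin, at 0.30, 0.16, 0.14 and 0.17. None of these passed over all arrays, and without array 4 Col1a2, Cntn1 and Cpe passed as higher.

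**Figure D3:**
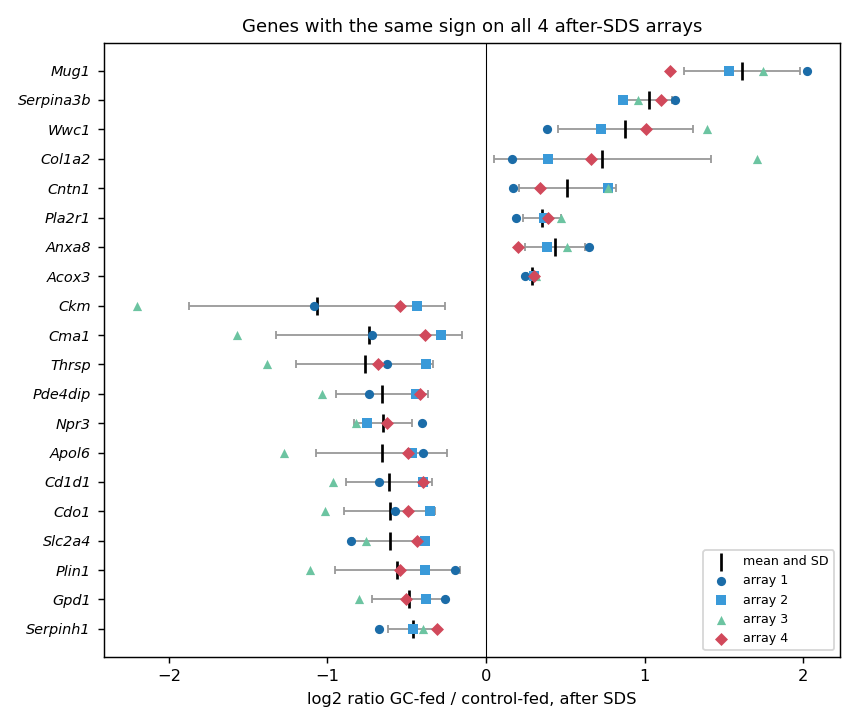
Log2 diet ratios (GC-fed over control-fed) on the 4 after-SDS arrays (coloured symbols) for 20 genes with the same sign on each, with the mean and SD over the arrays (n = 4) in black and grey. Mug1, Serpina3b and Wwc1 stand highest, and array 3 has the most negative ratio for Ckm, Cma1 and Thrsp.

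The lower genes included the most negative fitted value of all genes. Ifi27l2a, an interferon-inducible mitochondrial protein, had ratios of -2.02, -0.85, -5.08 and -6.10 and a fitted value of -3.51 (SE 0.50, unadjusted p = 0.000262). Its log2 intensity was 12.74, 14.34, 9.70 and 9.18 in GC-fed skin, against 14.76, 15.18, 14.79 and 15.28 in control-fed skin. Control-fed samples lay close together, GC-fed samples did not, and every GC-fed sample was below every control-fed one. The ratios of Ifi27l2a were far more negative on the arrays with GC-fed skin in Cy5 than on those with it in Cy3. The part of the dye in this spread cannot be told apart from that of the samples. Another probe of the gene gave -2.77. Defb7, a beta-defensin, was also lower on 4 of 4 arrays, at -0.73, -3.86, -3.25 and -0.84, and was well above background in 3 of the 4 GC-fed and all 4 control-fed samples. It is named because of its size, after its values were seen. Npr3, the clearance receptor of natriuretic peptides, was at -0.41, -0.75, -0.82 and -0.62 (fitted value -0.65, other probes -0.36 and -0.20), and Cd1d1, which presents lipid antigens to natural killer T cells, at -0.68, -0.40, -0.96 and -0.40. Apol6, an apolipoprotein L, was at -0.40, -0.47, -1.28 and -0.49, and Serpinh1, the collagen chaperone HSP47, at -0.68, -0.46, -0.40 and -0.31. Pde4dip, a centrosomal scaffold that is abundant in muscle, was at -0.74, -0.44, -1.03 and -0.42, although 4 other probes of the gene lay between -0.24 and 0.02. None passed over all arrays, and without array 4 Ifi27l2a, Cd1d1 and Serpinh1 passed as lower.

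Skeletal muscle transcripts were lower in GC-fed skin on every array. Dorsal mouse skin carries a sheet of striated muscle, the panniculus carnosus, below the dermis. All 35 listed muscle genes were above background, 33 of them had a fitted value below 0, and 18 were below 0 on 4 of 4 arrays, where 4.65% of all genes were. The median of the list was -0.70, with medians of -0.96, -0.24, -1.06 and -0.31 on arrays 1 to 4, beside 0.00 over all genes. Ckm, muscle creatine kinase, was at -1.08, -0.44, -2.20 and -0.54, with levels of 12.79, 13.52, 12.36 and 13.41 in GC-fed skin, against 13.88, 13.96, 14.56 and 13.95 in control-fed skin. Every GC-fed sample was below every control-fed one for Ckm. Mylk2, skeletal myosin light chain kinase, was at -1.14, -0.55, -0.98 and -0.31, Myoz1, a Z-disc protein, at -1.65, -0.59, -1.61 and -0.32, and, outside the list, Myl3, a myosin light chain of slow and cardiac muscle, at -1.64, -0.39, -1.27 and -0.40. Another Myl3 probe gave 0.04. Pvalb, the calcium buffer parvalbumin, was at -2.41, -1.05, -1.86 and -0.05. The muscle forms of 2 respiratory subunits, Cox7a1 (-0.90, 0.01, -0.99 and -0.47) and Cox6a2 (-0.75, 0.14, -0.91 and -0.53), followed in part, with array 2 near or above 0. Array 4 was near or above 0 for some muscle genes with large ratios elsewhere. Myh4, a fast myosin heavy chain, was at -4.20, -1.40, -2.78 and 0.61, and Actn3, the fast fibre actinin, at -2.88, -0.89, -3.43 and -0.21. No muscle gene passed over all arrays, and 9 of the 35 passed as lower without array 4, where 4.1% of all genes did. The depth to which the skin was cut is not given in the labels, and its part in these values was not tested.

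Genes of fat cells were lower as well. Of 25 listed adipocyte genes 23 were above background (Adrb3 and Ucp1 were not), 21 of the 23 had a fitted value below 0, and 11 were below 0 on 4 of 4 arrays, where 4.65% of all genes were. The list had a median of -0.38, and -0.20, -0.35, -0.76 and -0.22 by array. Plin1, which coats lipid droplets, was at -0.20, -0.38, -1.11 and -0.54, with levels of 12.48, 12.27, 11.97 and 12.06 in GC-fed skin, against 12.67, 12.65, 13.09 and 12.60 in control-fed skin. The highest GC-fed level was under the lowest control-fed level. Outside the list, Gpd1, which makes the glycerol backbone of triglycerides, had ratios of -0.26, -0.38, -0.80 and -0.51 and a fitted value of -0.49 (SE 0.07, unadjusted p = 0.000242). Another Gpd1 probe gave -0.22. Thrsp, a regulator of lipid synthesis, was at -0.62, -0.38, -1.38 and -0.68, Slc2a4, the insulin-responsive glucose transporter, at -0.85, -0.39, -0.76 and -0.44. Outside the list, Cdo1, cysteine dioxygenase, was at -0.57, -0.35, -1.01 and -0.49 and Aldh1l1, a folate enzyme, at -0.17, -0.28, -0.71 and -0.41. Fabp4, a fatty acid carrier, was at -0.78, -0.55, -0.81 and 0.04. Enzymes that fat shares with sebaceous glands moved less evenly, with Fasn, fatty acid synthase, at 0.14, -0.21, -0.39 and -0.61 and Pcx, pyruvate carboxylase, at 0.03, -0.09, -0.62 and -0.68. The list of fatty acid synthesis as a whole had a median of -0.03, with 6 of 15 genes above 0. Without array 4, 6 of the 23 adipocyte genes passed as lower, where 4.1% of all genes did, among them Plin1 (-0.67, adjusted p = 0.0176) and Thrsp (-0.90, adjusted p = 0.0299).

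Mast cell genes were also lower on every array. Of 18 listed genes 15 were above background, 14 of them had a fitted value below 0 and 10 were below 0 on 4 of 4 arrays, where 4.65% of all genes were. Cma1, mast cell chymase, was at -0.72, -0.28, -1.57 and -0.38, with levels of 12.30, 12.95, 12.09 and 12.86 in GC-fed skin, against 13.01, 13.23, 13.66 and 13.25 in control-fed skin. The groups did not overlap. Mcpt4, the connective tissue mast cell protease, was at -0.74, -0.13, -1.04 and -0.24, and Cpa3, mast cell carboxypeptidase, at -0.86, -0.21, -0.90 and -0.05. The median of the list was -0.16, with -0.10, -0.18, -0.61 and -0.11 by array, so array 3 carried much of the size. Without array 4, Cma1, Mcpt4 and Cpa3 passed as lower, the 3 mast cell genes of 15 that did, where 4.1% of all genes did. The muscle, adipocyte and mast cell lists had their most negative medians on array 3, as had the macrophage, complement and interferon lists. Other lists were lowest there too, among them the dendritic and Langerhans cell (-0.42), oxidative stress (-0.32) and immediate early (-0.32) lists. The collagen list and the nerve and Schwann cell list were also lowest there, but at only -0.20 and -0.04. Array 3 had the widest spread of ratios over genes (SD 0.411), so this is not particular to the named lists. Endothelial markers had medians of -0.09, -0.09, -0.38 and 0.10, with 18 of 21 genes below 0.

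**Figure D4:**
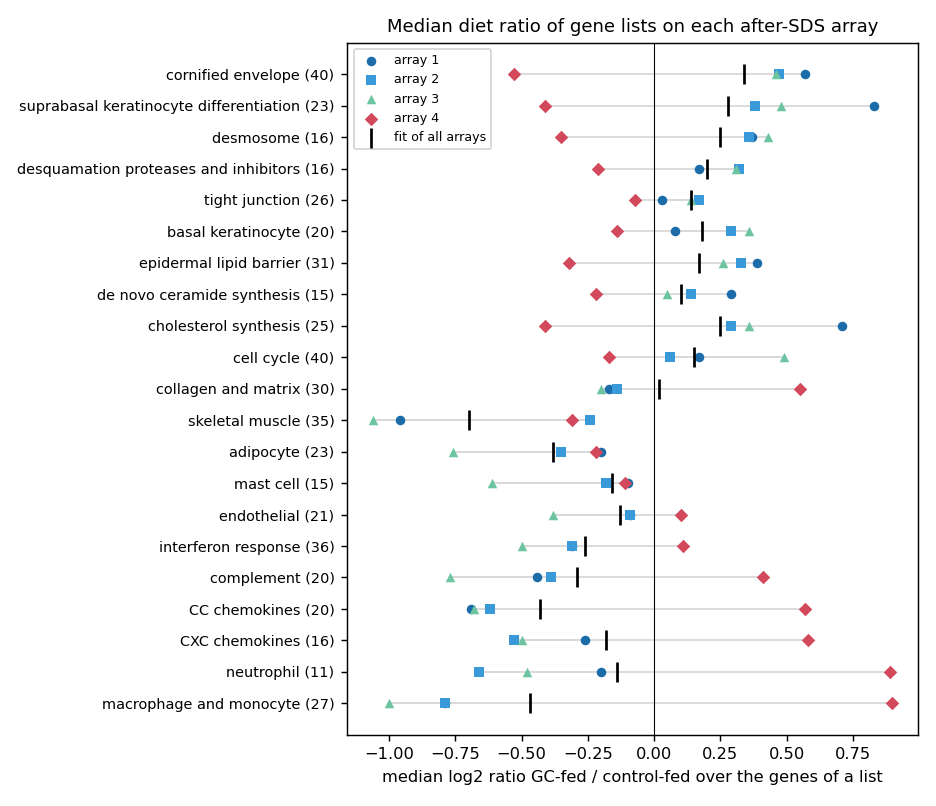
Median log2 diet ratio (GC-fed over control-fed) of the genes in 21 lists (number of genes in brackets) on each after-SDS array, with the median of the fitted values over all arrays as a black bar. Epidermal and lipid lists are above 0 and immune lists below 0 on arrays 1 to 3 with the reverse on array 4, while the muscle, adipocyte and mast cell lists are below 0 on all 4.

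Genes of epidermal differentiation were higher in GC-fed skin on arrays 1 to 3 and lower on array 4. The cornified envelope list had 40 genes above background, 33 of them with a fitted value above 0, and a median of 0.34. By array the median was 0.57, 0.47, 0.46 and -0.53. Filaggrin (Flg), which packs keratin filaments and yields natural moisturizing factor, was at 1.82, 0.64, 0.55 and -1.10. Loricrin (Lor), the main protein of the envelope, was at 1.90, 0.76, 0.69 and -1.15. Hornerin (Hrnr), a filaggrin-like protein, was at 2.19, 1.20, 0.79 and -1.19, with levels of 15.33, 14.98, 14.99 and 13.86 in GC-fed skin, against 13.14, 13.78, 14.20 and 15.05 in control-fed skin. For these 3 genes the 4 GC-fed samples overlapped with the control-fed ones through array 4. Involucrin (Ivl), an early envelope protein, was at 0.40, 0.71, 0.51 and -0.76, and transglutaminase 1 (Tgm1), which cross-links the envelope, at 0.50, 0.66, 0.65 and -0.54. No envelope gene passed over all arrays. Without array 4, 6 of the 40 passed as higher and 0 as lower, where 1.51% of all genes were called higher; Tgm1 was at 0.61 (adjusted p = 0.0151) and Hrnr at 1.35 (adjusted p = 0.0421), whereas Flg and Lor did not pass.

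Of the 40 envelope genes 1, Sprr1a, was above 0 on 4 of 4 arrays, where 3.11% of all genes were, so the list was near that share. On 4 of 4 arrays 0 envelope genes were below 0, where 4.65% of all genes were. Cst6, the cysteine protease inhibitor cystatin M/E, did not follow the list, with 0.14, -0.26, 0.83 and 0.74. Its ratios were lower on the arrays with GC-fed skin in Cy3 than on those with it in Cy5, and its fitted value was 0.36 (SE 0.08). All 23 suprabasal genes had a fitted value above 0, with a median of 0.28 and medians of 0.83, 0.38, 0.48 and -0.41 by array. Krt1, a keratin of the spinous layer, was at 2.24, 0.69, 0.88 and -0.79, with levels of 17.07, 15.88, 16.27 and 15.57 in GC-fed skin, against 14.84, 15.19, 15.39 and 16.36 in control-fed skin. Another Krt1 probe gave 0.02 in the fit. Its partner Krt10 was at 1.20, 0.19, 1.21 and -0.29, and Krt2, of the upper spinous layer, at 0.55, 1.58, 2.63 and -0.40. The basal keratins differed less, with Krt5 at 0.76, 0.08, 0.60 and -0.20 and Krt14 at 0.88, -0.13, 0.57 and -0.04. Keratins of the wounded epidermis had no common direction on arrays 1 to 3: Krt6a was at 0.57, -0.51, -0.52 and 0.17, Krt16 at 0.94, -0.91, 0.06 and -0.29, and Krt6b, a near copy of Krt6a, at -0.24, -0.12, -0.05 and 0.46.

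Junctions and shedding enzymes split like the envelope. Of 16 desmosome genes 13 had a fitted value above 0, with medians of 0.37, 0.36, 0.43 and -0.35 by array. Desmoplakin (Dsp), which anchors keratin at the desmosome, was at 0.59, 0.43, 0.83 and -0.10, plakophilin 3 (Pkp3) at 0.90, 0.47, 0.20 and -0.40, and corneodesmosin (Cdsn), the glue of the cornified layer, at 0.77, 0.56, 0.34 and -0.49. Without array 4, 5 of the 16 passed as higher, where 1.51% of all genes did; 3 other probes of Dsp gave 0.22, 0.35 and 0.15 over all arrays, against 0.44. The kallikrein Klk7, which cuts corneodesmosin, was at 0.87, 0.45, 0.45 and -0.20, and Klk10 at 0.17, 0.36, 0.26 and 0.04. Klk10 was the 1 gene of 16 in its list above 0 on all arrays, where 3.11% of all genes were. Their inhibitor Spink5 was at 1.32, 1.27, 0.46 and -0.49. Tight junction genes had a smaller median of 0.14, with 0.03, 0.17, 0.14 and -0.07 by array. Claudin 1 (Cldn1), which seals the granular layer, was at 0.13, 0.58, 0.58 and -0.30, Cldn4 at 0.22, 0.40, 0.11 and -0.01, and occludin (Ocln) at 0.05, 0.23, 0.71 and -0.02. Among genes outside the lists, Slurp1, a secreted keratinocyte protein, was at 1.57, 1.02, 0.36 and -1.44, Hoxa7, a homeobox gene, at 0.92, 1.12, 1.08 and -0.52, and Ggct, an enzyme of glutathione breakdown, at 1.62, 0.66, 0.91 and -1.19. All 3 passed as higher without array 4; another Ggct probe gave 0.09 over all arrays, against 0.50.

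Ugcg, which makes glucosylceramide, was at 0.05, 0.30, 0.10 and -0.18, a fitted value of 0.07 (SE 0.08), with no direction beyond its error. Abca12, which loads glucosylceramide into lamellar granules, was at 1.08, 0.65, 0.57 and -0.69, and passed as higher without array 4 (0.77, adjusted p = 0.0444), although 2 other probes gave 0.05 and -0.03 over all arrays. Smpd1, acid sphingomyelinase, was at 1.23, 0.54, 0.04 and -0.73. The list of glucosylceramide and sphingolipid turnover had 15 of 30 genes above 0 and a median of 0.02.

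De novo ceramide synthesis was uneven. Sptlc2, a subunit of the first enzyme, was at -0.22, -0.26, 0.04 and 0.31. The ceramide synthase Cers5 was at 0.68, 0.77, 0.17 and -0.22, and the desaturase Degs1 at 1.15, 0.48, 0.00 and -0.12; array 3 was near 0 for both. Cers3, the ceramide synthase of the epidermis, had no matched probe and was not analysed here. Of 15 genes in this list 10 had a fitted value above 0, with a median of 0.10. The wider list of the epidermal lipid barrier had 26 of 31 above 0 and medians of 0.39, 0.33, 0.26 and -0.32, and 7 of its genes passed as higher without array 4, where 1.51% of all genes did. Fa2h, which hydroxylates the fatty acids of ceramides, was at 1.55, 0.79, 0.19 and -0.10, Ephx3, an epoxide hydrolase of the ceramide linoleate pathway, at 0.64, 0.56, 0.26 and -0.09, and Elovl1, an elongase, at 0.99, 0.55, 0.12 and -0.16. In each of these 3 the ratio was largest on array 1 and smallest on array 4.

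Cholesterol synthesis had 24 of 25 genes with a fitted value above 0. The median was 0.25, with 0.71, 0.29, 0.36 and -0.41 by array, and 23 of the 25 were above 0 on arrays 1 to 3, where 16.2% of all genes were. Lss, which closes the sterol rings, was at 0.29, 0.36, 0.74 and -0.01, and Msmo1, a sterol methyl oxidase, at 1.41, 0.58, 0.46 and -0.40. Without array 4, 5 of the 25 passed as higher, where 1.51% of all genes did. Lss was among them (0.50, adjusted p = 0.0307), although its other probes gave 0.17 and 0.04 over all arrays, against 0.34. No gene of the list was above 0 on all 4 arrays, where 3.11% of all genes were.

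The inflammatory genes ran the other way. All 27 macrophage and monocyte genes above background had a fitted value below 0, and 26 were below 0 on arrays 1 to 3, where 22.1% of all genes were. On 4 of 4 arrays 0 of the 27 were below 0, where 4.65% of all genes were. The median was -0.47, with -0.79, -0.79, -1.0 and 0.90 by array. Lyz2, the lysozyme of macrophages and neutrophils, was at -2.24, -2.36, -1.72 and 2.24, with levels of 14.96, 14.92, 15.76 and 17.22 in GC-fed skin, against 17.20, 17.28, 17.48 and 14.98 in control-fed skin. The 2 samples of array 4 lay inside the range of the opposite diet. Clec4e, the receptor Mincle, which senses mycobacterial lipid and dying cells, was at -1.98, -2.34, -2.67 and 1.81, with levels of 10.60, 9.72, 9.83 and 12.80 in GC-fed skin, against 12.58, 12.06, 12.50 and 10.98 in control-fed skin. Outside the list, its neighbour Clec4d was at -1.72, -2.92, -2.94 and 1.98. Acod1, which makes itaconate in activated macrophages, was at -1.42, -2.54, -3.11 and 1.54, and Mmp12, macrophage elastase, at -1.16, -3.19, -2.62 and 1.78. Fcgr1, a high-affinity antibody receptor, was at -0.98, -0.68, -0.30 and 0.24, and another probe gave -0.15 over all arrays, against -0.43. Without array 4, 22 of the 27 passed as lower, where 4.1% of all genes did; Clec4e fell by 2.41 (adjusted p = 0.000656) and Lyz2 by 2.0 (adjusted p = 0.000656).

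Neutrophil genes split like the macrophage genes, with list medians of -0.20, -0.66, -0.48 and 0.89 by array. Of the 11 above background, 8 were below 0 on arrays 1 to 3, where 22.1% of all genes were. Of the 11, 4 passed as lower without array 4, where 4.1% of all genes did. Mpo, myeloperoxidase of neutrophil granules, did not follow the list, at 1.42, 0.56, -0.27 and -0.15. On arrays 1 and 2 it was above 0, where the macrophage medians were below 0, and on array 3 both were below 0. Chil3, a chitinase-like protein of myeloid cells, was at -2.07, -2.35, -1.75 and 1.58, S100a9 at -2.36, -1.15, -2.55 and 1.72 and S100a8 at -1.58, -1.34, -1.58 and 1.93. The S100 pair encodes calprotectin, which stressed keratinocytes also make. Of 16 listed neutrophil genes 15 had a matched probe (Ly6g did not) and 11 were above background; Elane, Camp, Ngp and Ltf were not. Of these 11, 8 had a fitted value below 0, and the list median of -0.14 was 0.08 without array 3. The complement list had 19 of 20 genes below 0 and medians of -0.44, -0.39, -0.77 and 0.41, and C1qb, made by tissue macrophages, was at -0.49, -0.39, -1.59 and 0.19. Cd83, a marker of mature dendritic cells, was at -0.65, -0.71, -0.63 and 0.37.

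Chemokines and cytokines made after barrier damage were in part too dim to compare. Of 20 CC chemokine genes above background 17 had a fitted value below 0, with medians of -0.69, -0.62, -0.68 and 0.57, and 13 passed as lower without array 4, where 4.1% of all genes did. Ccl4, which draws monocytes and T cells, was at -0.62, -2.23, -2.92 and 0.68, Ccl11, the eosinophil attractant eotaxin, at -0.83, -0.52, -1.65 and 0.47, and Ccl19, a ligand of CCR7, at -0.64, -0.61, -0.37 and 0.09. The neutrophil attractant Cxcl3 was at -1.04, -2.0, -2.57 and 2.02. Il1b was at -0.96, -2.0, -2.14 and 1.08 and passed as lower without array 4 (-1.84, adjusted p = 0.00718). Il1a, the form stored in keratinocytes, was at 0.09, 0.04, 0.54 and -0.26, and the interleukin 1 family as a whole had 9 of 17 genes above 0. Il33, an alarmin of the barrier, was at -1.0, -0.98, -0.35 and 0.73. Tnf was at -0.06, -0.65, -0.95 and 1.03, and was well above background in 3 of 4 GC-fed and 4 of 4 control-fed samples. Il6, above background in 2 of 4 GC-fed and 3 of 4 control-fed samples, was at -0.04, -0.60, -0.38 and 0.46. Tslp, a keratinocyte cytokine of allergic inflammation, was at -0.10, -0.56, -0.20 and 0.14, a fitted value of -0.18 (SE 0.10). None of these passed over all arrays.

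Genes of the interferon response were lower on arrays 1 to 3 and near 0 on array 4. Interferons act on their target genes through the interferon-stimulated response element. All 36 measured genes had a fitted value below 0, with a median of -0.26 and medians of -0.31, -0.31, -0.50 and 0.11 by array. On all 4 arrays 6 of them were below 0 (4.65% of all genes), and without array 4, 10 passed as lower (4.1% of all genes). Psmb9, a subunit of the immunoproteasome, was at -0.46, -0.12, -0.22 and -0.27. Isg15, a ubiquitin-like modifier, was at -0.34, -0.52, -0.50 and 0.07, with levels of 9.63, 9.03, 8.89 and 9.61 in GC-fed skin, against 9.97, 9.55, 9.39 and 9.54 in control-fed skin, and the groups overlapped. The response element was searched in the RefSeq promoters (250 bases before to 50 after the start, build GRCm38.p6) as GAAA, then NN (any bases), then GAAA, on both strands, and overlapping matches run together. It occurred in 3.44% of all 32851 promoters, and in 16 of the 30 promoters of 26 interferon genes with an entry (53.3%). A match is a description of the letters, not evidence of binding. Of the 10 genes that passed without array 4, 7 had a promoter entry and 6 of these held it. The promoters shown are those of the 4 among these 6 with the smallest p over all arrays. The Isg15 promoter lies at chr4:156200769-156201068 on the minus strand. The Gbp3 promoter lies at chr3:142559794-142560093 on the plus strand. The Gbp2 promoter lies at chr3:142620413-142620712 on the plus strand. The Bst2 promoter lies at chr8:71537423-71537722 on the minus strand. Capitals mark the matches, and each promoter is written 5′ to 3′ along its gene.
Isg15: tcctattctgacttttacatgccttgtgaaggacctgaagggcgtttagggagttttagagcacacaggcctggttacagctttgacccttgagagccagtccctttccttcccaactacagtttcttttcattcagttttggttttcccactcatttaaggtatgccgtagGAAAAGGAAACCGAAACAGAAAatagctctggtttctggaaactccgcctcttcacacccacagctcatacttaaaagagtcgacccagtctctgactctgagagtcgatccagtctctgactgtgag
Gbp3: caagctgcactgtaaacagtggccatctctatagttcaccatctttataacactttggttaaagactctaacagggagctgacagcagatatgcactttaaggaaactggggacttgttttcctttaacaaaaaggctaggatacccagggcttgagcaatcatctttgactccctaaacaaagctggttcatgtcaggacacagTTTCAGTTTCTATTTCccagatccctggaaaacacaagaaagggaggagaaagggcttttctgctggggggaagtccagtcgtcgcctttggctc
Gbp2: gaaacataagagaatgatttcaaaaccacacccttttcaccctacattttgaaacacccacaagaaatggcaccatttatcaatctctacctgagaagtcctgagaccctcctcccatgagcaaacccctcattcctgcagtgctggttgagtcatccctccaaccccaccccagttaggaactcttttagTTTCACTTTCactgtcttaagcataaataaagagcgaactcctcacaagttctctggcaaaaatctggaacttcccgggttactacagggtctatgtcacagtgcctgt
Bst2: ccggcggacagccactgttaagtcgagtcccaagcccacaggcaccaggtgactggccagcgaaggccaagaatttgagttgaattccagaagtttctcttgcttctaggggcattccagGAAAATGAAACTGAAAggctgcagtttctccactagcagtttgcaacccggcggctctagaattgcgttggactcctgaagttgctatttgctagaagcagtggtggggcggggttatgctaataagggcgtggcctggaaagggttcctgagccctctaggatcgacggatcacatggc

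The matches begin 78 bases before the start in Isg15, 45 in Gbp3, 59 in Gbp2 and 130 in Bst2, with 3, 2, 1 and 2 overlapping matches in the same order. Gbp3, a guanylate-binding protein of the defence against intracellular microbes, was at -0.67, -0.36, -0.59 and 0.11. Its neighbour Gbp2 was at -0.83, -0.45, -0.85 and 0.38, and Bst2, tetherin, which holds budding viruses, at -1.03, -0.84, -0.90 and 0.38. These 3 genes had the sign of Isg15 on each array, below 0 on arrays 1 to 3 and above it on array 4. Without array 4, Isg15 passed at -0.44 (adjusted p = 0.0344) and Gbp3 at -0.53 (adjusted p = 0.0433).

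Matrix and growth genes had mixed directions. The collagen and matrix list had medians of -0.17, -0.14, -0.20 and 0.55, with 16 of 30 genes above 0 in the fit. Col1a1, the first chain of type I collagen, was at 0.73, 1.28, 1.22 and -0.26, and Col3a1, of type III collagen, at -0.04, 0.41, 0.83 and 0.40. Without array 4 Col1a1 passed at 1.08 (adjusted p = 0.0291); its other probes gave 0.74 and 0.46 over all arrays, against 0.74 for the probe used. The cell cycle list had 39 of 40 genes with a fitted value above 0, a median of 0.15 and medians of 0.17, 0.06, 0.49 and -0.17. Mki67, a marker of dividing cells, was at 0.69, 0.70, 0.85 and -0.39 and passed as higher without array 4 (0.72, adjusted p = 0.0242). It was the 1 gene of the 40 that did, where 1.51% of all genes did, so the list was near the share of all genes.

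The other lists had medians closer to 0 or did not have 1 sign on all 4 arrays. Basal keratinocyte genes had a median of 0.18 with 16 of 20 above 0, sebaceous gland genes 0.19 with 13 of 16, and genes of the wounded epidermis 0.07 with 11 of 19. Hair follicle genes had a median of 0.07, although the arrays gave -0.45, 0.06, 0.93 and -0.19. PPAR receptors and targets were at -0.05, respiratory subunits at -0.08, oxidative stress genes at -0.12, clock genes at -0.06 and immediate early genes at -0.06. Metalloproteinases and their inhibitors were at -0.02, with -0.37, -0.33, -0.31 and 0.62 by array, and CXC chemokines at -0.18 with 15 of 16 genes below 0. The CXC medians split like those of the CC chemokines, with -0.26, -0.53, -0.50 and 0.58 by array. Of the 16 CXC genes, 5 passed as lower without array 4, where 4.1% of all genes did. Among other immune cells, dendritic and Langerhans cell genes were at -0.13, T and NK cell genes at -0.03 and B and plasma cell genes at -0.04, the last with 6 genes above background. The other cytokines were at -0.06 with 13 genes above background. Erythrocyte genes, 4 in number, were at -0.41, with -0.40, -0.96, -0.93 and 0.66 by array. Melanocyte genes were at 0.05 and nerve and Schwann cell genes at -0.02. No gene of these lists passed over all arrays.

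Some of the largest differences between array 4 and the rest were in single genes. C4b, complement component 4, was at 0.07, -0.54, 1.76 and -3.79. Its level varied within both diets, with 9.77, 13.70, 12.22 and 10.18 in GC-fed skin, against 9.70, 14.24, 10.46 and 13.96 in control-fed skin. Both samples of array 1 were low and both of array 2 high. Apol7c, an apolipoprotein L, was at 0.05, 2.52, 2.09 and -1.45, and another probe gave 0.28 in the fit, against 0.80. These ratios do not separate the diets.

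The last comparison asks whether the diet ratio after SDS differed from that before SDS. Every after-SDS array lay on 1 slide read in 1 scan and every array of untreated skin on a different slide. The diet had lasted 14 days after SDS and 12 days before it. SDS, slide and days of diet therefore cannot be told apart. In limma's fit 0 genes passed (0%, lowest adjusted p 1), with 195 at p under 0.05 before adjustment. Wwc1 had an after-minus-before value of 1.11 (SE 0.19, unadjusted p = 0.000713), with ratios of -0.14, -0.17 and -0.21 before SDS. It was thus above 0 on 4 of 4 arrays after SDS and below 0 on 3 of 3 before. Ifi27l2a, in contrast, was below 0 before SDS as well, at -0.84, -1.07 and -1.61. Mug1 was at 0.89, 1.47 and -0.17 before SDS, and Serpina3b at -0.09, 1.2 and 0.43. Cdo1 differed by -0.82 (SE 0.17), with 0.08, 0.34 and 0.15 before SDS, and Cdkn2c, a brake on the cell cycle, by -0.51 (SE 0.10), with -0.08, -0.17, -0.33 and -0.50 after SDS and 0.27, 0.17 and 0.17 before. Gpd1 differed by -0.54 (SE 0.11) and Pcx by -0.53 (SE 0.10). The adipocyte list as a whole had a median of -0.38 after SDS and -0.03 before, and the muscle list -0.70 after SDS and -0.14 before; the muscle list's medians on the 3 before-SDS arrays were -0.48, -0.26 and 0.27. Slit3, a secreted guidance protein, differed by 0.92 (SE 0.21), with 0.08, 0.13, 0.70 and 1.19 after SDS and -0.38, -0.04 and -0.49 before. Another Slit3 probe gave -0.30 after SDS, so its direction depends on the probe. Zfp68, a zinc finger protein, differed by 0.50 (SE 0.14), Unc45a, a myosin chaperone, by 0.80 (SE 0.19) and Edn1, the vasoconstrictor endothelin 1, by 0.38 (SE 0.11).

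**Figure D5:**
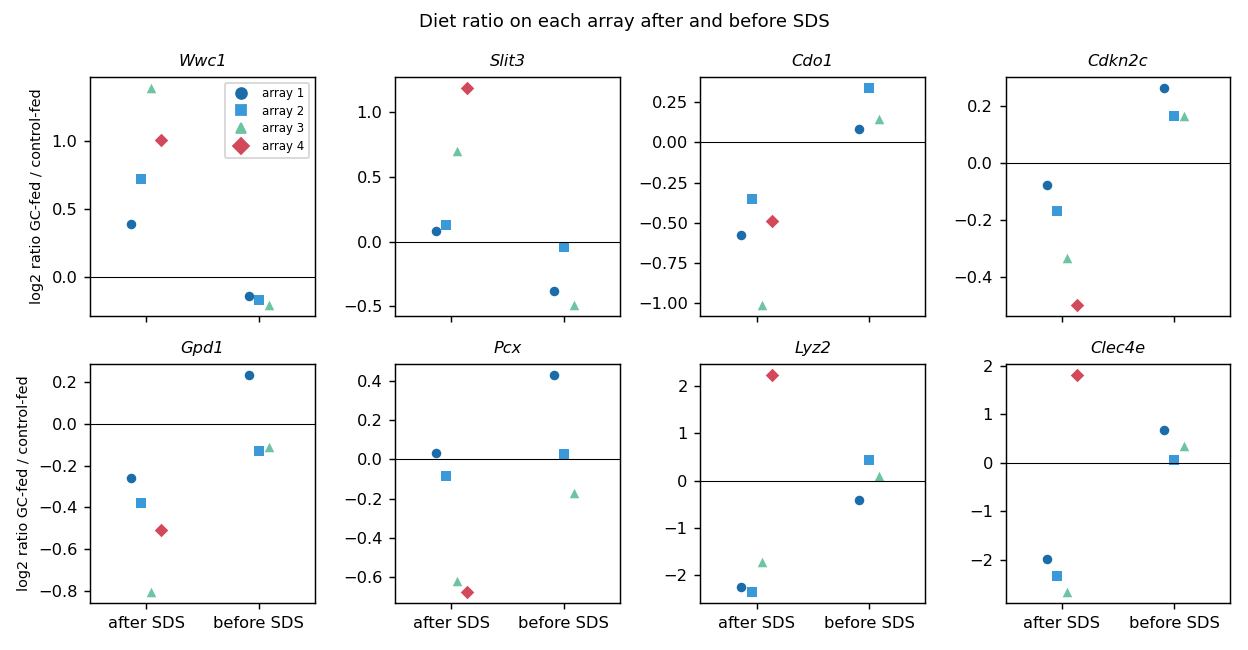
Log2 diet ratios (GC-fed over control-fed) on each array, after SDS on the left (4 arrays) and before SDS on the right (3 arrays), for 8 genes. Wwc1, Slit3, Cdo1 and Cdkn2c have opposite signs after and before SDS on every array, and Lyz2 and Clec4e are farther from 0 on each array after SDS than on any before, with array 4 opposite.

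Without array 4, 2 genes passed as higher after SDS than before (0.0121%) and 54 as lower (0.327%). Hoxa7 differed by 1.06 (SE 0.11, adjusted p = 0.0265). Clec4e differed by -2.84 (SE 0.15, adjusted p = 0.00775), with 0.67, 0.05 and 0.34 before SDS, and Lyz2 by -1.93 (SE 0.13, adjusted p = 0.00937), with -0.42, 0.44 and 0.09. Cybb, the core of the phagocyte NADPH oxidase, differed by -2.03 (SE 0.13, adjusted p = 0.00937). Mup1, a major urinary protein that carries pheromones, was among them too, at -1.87, -1.92 and -2.20 on arrays 1 to 3 and 0.87 on array 4; the Mup genes are near copies, so the probe may read several. Il1b (-2.24), Cxcl3 (-2.55) and S100a8 (-1.47) also passed. In the fit of all 7 arrays these genes did not pass, and Clec4e differed by -1.50 (SE 1.04).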

How the data were processed

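RNA of GC-fed and control-fed skin was compared on 4 after-SDS and 3 before-SDS arrays, 500 ng of total RNA per labelling, per the labels' protocols. Spot intensity in both channels was extracted by the authors, per the file headers, with Agilent Feature Extraction 9.1.3.1. The deposited gene-level table holds intensity values, with those under 200 set to 200, and a log2 ratio the authors made from them; it served as an alternative only, with 11311 genes used.

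The mean signal was corrected with normexp (offset 50) and normalized by loess within arrays in limma 3.58.1 (R 4.3.3), with control spots at weight 0 and outlier spots left out. Levels were set across arrays by Aquantile. Of 41174 probes, 25177 were well above background in at least 3 of 14 channels, and the brightest probe of a gene was used. Probe names came from accessions (22951), current symbols (6659) or updated older symbols (3109); 8455 kept the file's name. On the after-SDS arrays, 48.5% to 51.4% of spots in green and 58.2% to 62.8% in red were well above background, and the number of arrays limits the precision.

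Diet effects came from limma's fit to all 7 arrays with a dye term (residual degrees of freedom 4; the dye term passed for 0 genes, lowest adjusted p 0.292, with 2099 at unadjusted p under 0.05). P-values were adjusted by Benjamini-Hochberg over 17111 genes, with 0.05 as the threshold. The fit was tested on simulated data. SE is the standard error of the fit. Promoters are from RefSeq. Same-numbered after-SDS and before-SDS arrays did not deviate together (r = -0.09, -0.05 and 0.19), so the numbers were not taken to pair arrays.

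The 40 gene lists (917 genes) and the members were chosen with earlier results of these data known. Named genes, from genes above background in all channels with an ordinary symbol, were those with the largest smallest ratio among same-sign genes, the smallest p, the largest changes that passed without array 4, up to 4 of each list by p, the largest differences between arrays 1 to 3 and array 4, the smallest p for after minus before, and fixed barrier, lipid and cytokine genes. Bst2, Cybb, Defb7, Gbp2, Gbp3 and Mup1 fall outside this rule and were named after their values were seen. Alternatives changed the background correction, normalization, filter, probes, dye term, array weights, model, input table and arrays used. Some genes are not reported here.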

Additional observations from a re-analysis of the deposited data

Results flagged for a closer look

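A single array stood apart from the other 3 (Dixon's test) in 24 of 185 sets of 4 after-SDS values, and in 18 of the 24 it was array 4. The rule picks about 1 in 20 independent sets by chance, but these sets are correlated and some genes were named for differing on array 4, so nothing is read from the counts. Ratios were higher on array 4 alone, at 1.58 for Chil3, 1.81 for Clec4e, 1.68 for Cybb, 2.24 for Lyz2, 1.93 for S100a8, 0.87 for Mup1, 0.38 for Bst2 and 0.37 for Cd83. Hoxa7 (-0.52), Mki67 (-0.39) and Tgm1 (-0.54) were lower there. The list medians on array 4 stood apart for the cornified envelope (-0.53), desmosome (-0.35), CC chemokine (0.57), collagen and matrix (0.55), metalloproteinase and inhibitor (0.62) and macrophage (0.90) lists.

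On array 3, Apol6 had a ratio of -1.28 and the mast cell list a median of -0.61, and on array 2 the nerve and Schwann cell list had a median of 0.08. Among control-fed levels, Wwc1 on array 1 (9.85), Ckm on array 3 (14.56), Plin1 on array 3 (13.09) and Lyz2 on array 4 (14.98) stood apart.

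The diet ratio had 1 sign on every after-SDS array and the other on every before-SDS array for Wwc1 (after minus before 1.11), Slit3 (0.92), Zfp68 (0.50), Cdkn2c (-0.51) and Cdo1 (-0.82). The difference was tested for each in limma and did not pass (adjusted p 1).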

How the results depend on the processing

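For the diet effect after SDS, 0 genes higher and 0 lower were called under each of 18 other settings (lowest adjusted p 0.1 in the separate-channel analysis, 268 to 1414 genes at an unadjusted p under 0.05). Leaving out 1 after-SDS array gave from 0 to 250 genes higher and from 0 to 676 lower, the highest counts being those without array 4. For after minus before, the same gave from 0 to 2 higher and from 0 to 54 lower, again highest without array 4, and 0 under 16 other settings (lowest adjusted p 0.0734). With the replicate number as a block, 0 genes were called higher and 0 lower. That fit had nearly as many terms as arrays, and replicate 4 has no before-SDS array. It therefore cannot say whether pairing matters. The interleukin 1 family median ran from -0.07 (without array 1) to 0.15 (without array 4) when 1 array was left out, against 0.10 with all arrays. Other list medians also moved with single arrays. Without array 3 the neutrophil (0.08), hair follicle (-0.31) and melanocyte (-0.22) medians had the other sign, and the macrophage (-0.19), CC chemokine (-0.19), complement (-0.04), interferon (-0.10), adipocyte (-0.19), muscle (-0.44), suprabasal (0.15), desmosome (0.09), cholesterol (0.12), epidermal lipid (0.08) and cell cycle (0.00) medians were nearer 0. Without array 1 the cornified (0.10), suprabasal (0.11) and cholesterol (0.12) medians were nearer 0. Without array 4 the collagen median was -0.19. Slit3 was at -0.29 in the deposited table, against 0.53 here; the cause was not tested. Of 117 genes given by array, 64 passed without array 4, where 1.51% of all genes were called higher and 4.1% lower. Some of the 117 were named because they passed there, so nothing is read from the 64. From 0 to 5 of the 117 changed sign under any single setting. Array weights after SDS were 1.89, 0.83, 0.51 and 0.36 for arrays 1 to 4.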
